A study of Mus musculus with 24 samples.

Results

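Long intergenic noncoding RNAs (lincRNAs) were followed across 3 cell populations sorted from mouse embryos, with and without an antibody against the Notch ligand Dll4. Members were the autosomal genes that the authors' annotation types as lincRNA, apart from 2 imprinted RNAs, whose mean in at least 1 of the 6 groups reached 5 CPM, which scales a raw count to the library total. Of 2071 autosomal lincRNAs in the count table, 176 met this level; the whole table holds 29716 genes. The 3 members nearest to the limit had highest group means of 5.04 CPM (Gm26580), 5.04 (Gm26884) and 5.02 (C330006A16Rik), and the 3 just outside had 4.97 (Gm20707), 4.84 (2810414N06Rik) and 4.83 (5033430I15Rik). The rule reads levels in the same libraries that are compared, so a member that is high in 1 group and near 0 elsewhere entered through that group; 18 members reached the level in 1 group alone, 75 in all 6. Counts of members called are therefore given as descriptions, beside the share of all genes called.

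LincRNAs are transcribed by RNA polymerase II, mostly spliced and polyadenylated, and carry no long open reading frame. Some act in the nucleus on chromatin or nuclear bodies, some are precursors of microRNAs or small nucleolar RNAs, and for many only the act of transcription near a coding gene, or no role at all, is known. Many are restricted to few cell types, and in blood formation a handful have been tied to red cell maturation or myeloid cell survival.

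All embryos were E10.5 and of strain C57BL/6J. Anti-Dll4, or anti-human IgG as the control, was injected into the heart, and a culture of 5 h at 37 °C and 5% CO2 followed. Its medium held the same antibody at 5 µg/ml along with IL-3 (10 ng/ml) and hydrocortisone (10 µM), so both arms shared the culture, the cytokine and the steroid. Cells were released with collagenase and sorted as CD31+ Kit+ CD45- cells, CD31+ Kit- CD41+ CD45- cells and CD31+ Kit+ CD45+ cells; CD31 marks endothelium and some blood cells, Kit marks progenitors, CD41 early blood cells and platelets, and CD45 leukocytes. Below, CD41+ cells stands for the Kit- CD41+ CD45- population and CD45+ cells for the Kit+ CD45+ one. Each population and antibody has 4 libraries of polyA RNA, made from cDNA amplified by long-distance PCR. The title of the study concerns Dll4 in the recruitment of hemogenic cells to clusters of the aorta. The number of embryos per library is not stated, so the tests weigh only how these samples spread, which may be technical, and in sorted bulk cells fewer cells of a type cannot be told apart from less RNA per cell.

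Each library held between 8718351 and 11379830 counts, with at least 1 count for 166 to 176 of the members. Members took 0.595 to 1.44% of a library's counts. Transcripts of the sort markers matched the gates, with Ptprc, the gene of CD45, at 82.3 ± 33 CPM in CD45+ cells under IgG (SD, n = 4) and 0.811 ± 0.785 in Kit+ CD45- cells. Globin genes took 26.9% of the counts of Kit+ CD45- cells under IgG and 6.63% of those of CD41+ cells. In the Kit+ CD45- cells the 5 germ cell markers summed to 46.1 to 284 CPM over the 8 libraries, against 0.067 to 1.78 in the 16 libraries of the other populations, and Pou5f1 had no count in CD41+ or CD45+ cells. Replicate 1 of Kit+ CD45- cells under IgG stood apart, with an endothelial marker sum of 1655 CPM against 795 to 894 in the other 3 and a megakaryocyte and platelet marker sum of 763 against 2576 to 3565. From here CPM are scaled with TMM factors, and a gene is called in a comparison when its adjusted p is below 0.05 in edgeR's quasi-likelihood test over all 15618 genes tested. These levels are not corrected for gene length and are compared between samples, not between genes. All 176 members passed the filter on low counts.

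The word intergenic did not hold for a large share of the members on the authors' own coordinates (mm10). The body of 80 members (45.5%) overlapped that of a protein-coding gene, in 77 of the 80 on the opposite strand for the nearest one, against 13.7% of the other 1895 autosomal lincRNAs and 23.6% of coding genes that reach the same level. Another arrangement, a start within 1000 bases of a coding gene's start pointing the other way, was found for 36 members (20.5%), against 11.5% of the other lincRNAs and 15% of coding genes at the level. The median distance from a member to the nearest coding gene was 148 bases, against 16731 bases for the other lincRNAs. In GENCODE M21 156 of the 176 are still typed lincRNA and 13 are typed antisense. The library kit is not described as keeping strand, so reads from sequence that a pair on opposite strands shares may not be told apart. The overlap was scored on whole gene bodies, introns included, so such a pair need not share exons. An overlap is named below where the values of such a member are described.

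Pearson's r between a member and its nearest coding gene over the 24 libraries (log2 of TMM-scaled CPM + 1; the points share libraries, groups and depth, and r is a description) had a median of 0.76 for the 80 overlapping members, 58 of them above 0.5. For the 96 members that overlap no coding gene it was 0.25, with 19 above 0.5. In GENCODE M21, 106 members, more than the 80, have an exon that overlaps an exon of another gene of any type. Some of the 96 therefore share sequence with another gene too. Gm26819, which overlaps Med10, a Mediator subunit gene, had an r of 0.99, and Gm17638, which overlaps Eif3d, a translation factor gene, had 0.98. Of members called between CD45+ and CD41+ cells under IgG with a tested neighbour, 25 of 33 overlapping ones had a neighbour called the same way and 0 the opposite way. Among non-overlapping members it was 18 of 50, with 5 opposite. These shares were 75.8% and 36%, beside 31.8% among coding genes with a coding neighbour. Between Kit+ CD45- and CD41+ cells they were 80% (16 of 20) and 38.9% (14 of 36), beside 26.5%, and between CD45+ and Kit+ CD45- cells 88.2% (15 of 17) and 14.8% (4 of 27), beside 23.4%. In all 3 pairs the overlapping members stood above the coding genes, while the non-overlapping ones stood above them in 2 pairs and below in the other; the differences were not tested. A member that overlaps several coding genes is counted here with 1 of them.

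**Figure D1:**
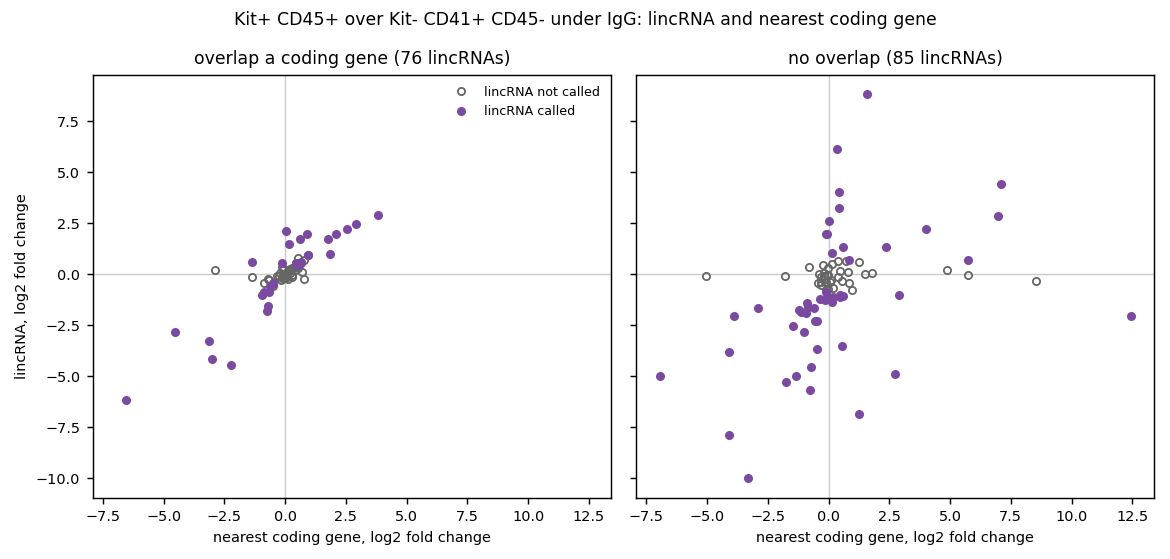
Log2 fold change of each lincRNA (vertical axis) against that of its nearest coding gene (horizontal axis) for CD45+ over CD41+ cells under IgG, for 76 lincRNAs that overlap a coding gene (left) and 85 that do not (right), both limited to those whose neighbour was tested; filled points are called lincRNAs. Points on the left lie along the diagonal, and on the right called lincRNAs also stand above and below neighbours near 0.

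Between the populations under IgG, 64 of 176 members (36.4%) were called between Kit+ CD45- and CD41+ cells, 30 higher and 34 lower in the first, where 27.9% of all genes tested (14% and 13.8% by direction) and 34% of genes at the same level were called. Between CD45+ and Kit+ CD45- cells 48 members (27.3%) were called, 20 higher and 28 lower, beside 19.2% of all genes (10% and 9.18%) and 22.7% at the level. Between CD45+ and CD41+ cells 95 members (54%) were called, 41 higher and 54 lower, beside 37.2% of all genes (19.7% and 17.5%) and 43.5% at the level. Under anti-Dll4 the same pairs gave 76, 75 and 88 members (43.2%, 42.6% and 50%), beside 29.9%, 29.2% and 37.6% of all genes. Under IgG the median log2 fold changes of the members were -0.05, -0.08 and -0.10, against 0.06, 0.04 and 0.05 over all genes. Among the 125 members with a mean of at least 5 CPM over all 24 libraries, 43, 31 and 62 were called. This is 34.4%, 24.8% and 49.6%, beside 34.4%, 22.8% and 42.6% of all genes at that mean. A member can still reach that mean through a single group where its level is high. By overlap with a coding gene, 42, 30 and 60 of the 96 non-overlapping members were called in these pairs and 22, 18 and 35 of the 80 overlapping ones; neither difference, by overlap or from genes at the same level, was tested.

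A member was counted as higher in a population when it was called above each of the other populations. Under IgG this held for 27 members in CD41+ cells, 13 in CD45+ cells and 8 in Kit+ CD45- cells, which is 15.3%, 7.39% and 4.55% of members, beside 9.65%, 6.27% and 2.53% of all genes and 12.2%, 7.89% and 2.93% of genes at the same level. The differences from genes at the same level were small, went both ways and were not tested, so they are not read as a trait of lincRNAs. Below, the smaller log2 fold change of a member is the lesser of its 2 against the other populations. Lower than in each other population were 19 members in CD41+ cells, 23 in CD45+ cells and 6 in Kit+ CD45- cells, which is 10.8%, 13.1% and 3.41% of members, beside 9.16%, 6.01% and 2.69% of all genes and 11.1%, 6.79% and 3.49% of genes at the same level. No pair was called for 65 members. Without replicate 2 of every group, the members called between CD45+ and Kit+ CD45- cells fell to 28 and those higher in Kit+ CD45- cells to 4. Those higher in CD45+ cells fell to 7 without replicate 1 of these cells, and to 4, 5 and 2 without replicate 2, 3 or 4 of every group. The anti-Dll4 libraries are separate samples of the same populations, but the rule of membership read them too, and both antibodies share 1 fit. Their values, called a repeat below, are therefore a description. There 8 of the 8, 25 of the 27 and 9 of the 13 members were again higher in Kit+ CD45-, CD41+ and CD45+ cells. Under anti-Dll4 16, 28 and 25 members were so counted, and 4.85%, 9.21% and 9.5% of all genes. These are shares of all genes, and how many genes higher under IgG recur was not counted. For the lower members the repeat was 6 of 6, 14 of 19 and 15 of 23 in the same order of populations, beside 5.34%, 7.77% and 6.34% of all genes under anti-Dll4.

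**Figure D2:**
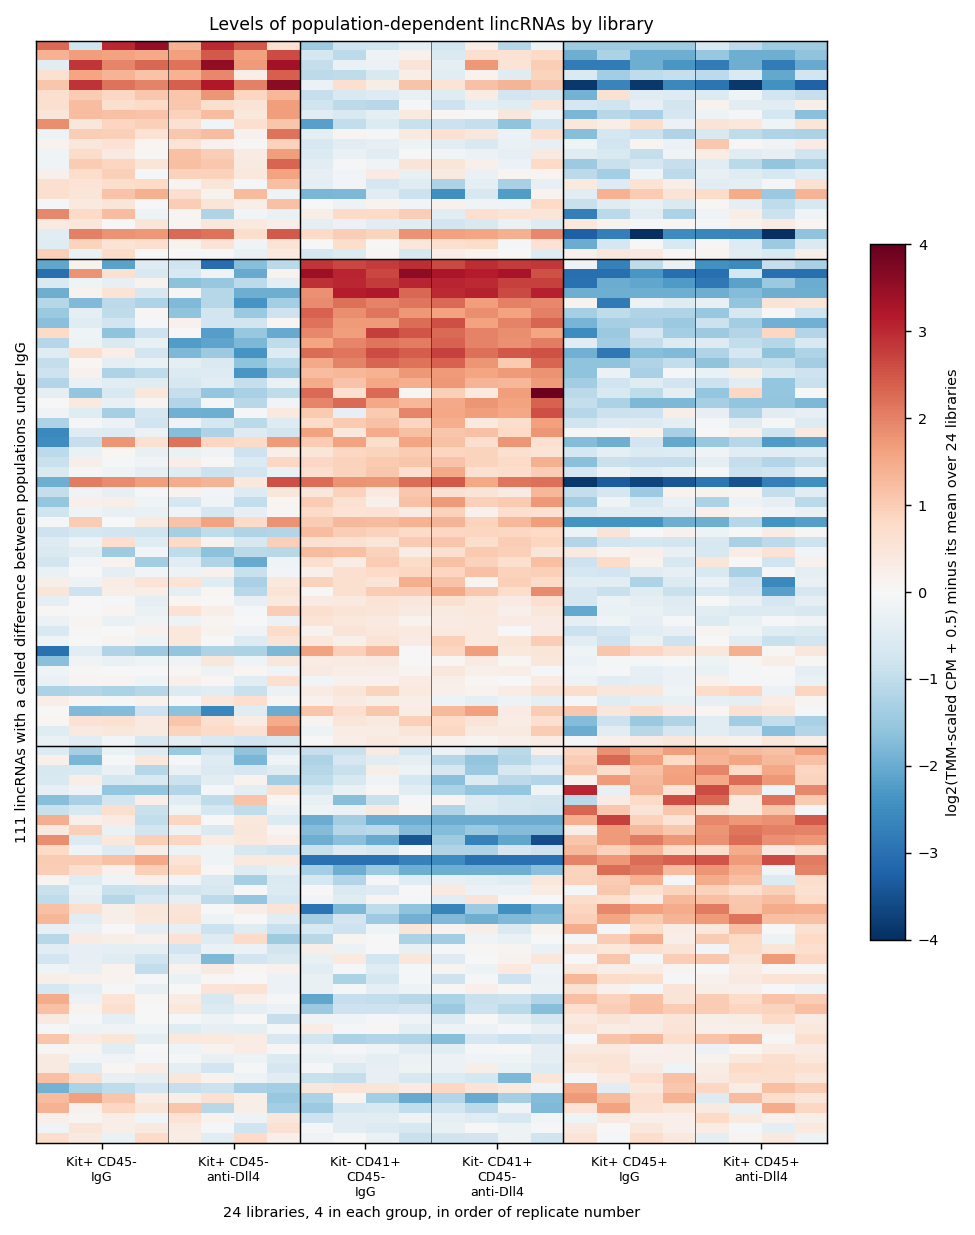
Each row is 1 of the 111 lincRNAs called in at least 1 pair of populations under IgG and each column 1 of 24 libraries, grouped by population and antibody; colour is log2(TMM-scaled CPM + 0.5) minus the row's mean. Rows are split by the population with the highest mean under IgG, 22 in Kit+ CD45- cells, 49 in CD41+ cells and 40 in CD45+ cells, so that the blocks of red on the diagonal follow from the ordering for the IgG columns; the anti-Dll4 columns were not used to order them.

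LincRNAs higher in CD41+ cells were the most frequent of the 3 kinds, as was this kind among all genes. AI504432 (ENSMUSG00000056145.5, chromosome 3, 107039504 to 107054347), which lies 1434 bases from the potassium channel gene Kcna3 on the same strand, stood at 37.2, 32.8, 36 and 40.0 CPM in the 4 IgG libraries of these cells. It stood at 0.738, 5.19, 0.672 and 3.15 in Kit+ CD45- cells and 4.19, 0.303, 2.06 and 3.94 in CD45+ cells, so that every library of the first lay above every other one. Under anti-Dll4 the repeat was 35.7 ± 3.02 (SD, n = 4) against 1.41 ± 1.03 and 1.18 ± 0.902, with log2 fold changes of -4.71 (SE 0.69, adjusted p = 1.4e-05) for Kit+ CD45- and -4.90 (SE 0.68, adjusted p = 3.66e-06) for CD45+ cells over CD41+ cells. Between Kcna3 and AI504432, r was 0.88 over 24 libraries.

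AC160146.1 (ENSMUSG00000112500.1, chromosome 10, 117925459 to 117948292) lies 79424 bases from Rap1b, a small GTPase of platelet integrin activation. It stood at 6.33, 16.6, 17.3 and 9.1 CPM in CD41+ cells under IgG and at 0, 1.64, 2.35 and 0.755 in Kit+ CD45- cells, and it had no count in CD45+ cells. The level in CD41+ cells was at least 53.5-fold higher than there, against a floor of 3 counts per library. Rap1b, at 8541 ± 214 CPM against 864 ± 218, differed the same way, and r between the pair was 0.96. The groups of AC160146.1 under anti-Dll4, 14.6 ± 2.08 against 0.47 ± 0.711 and 0.0194 ± 0.0387 CPM, did not overlap either.

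Of the 27 members, 8 overlap a coding gene, and those with the largest smaller fold changes among these were Gm29233 and Gm16548. Gm29233, overlapping Thbs1 on the other strand, the gene of the platelet granule protein thrombospondin, stood at 37.5, 39.8, 33.9 and 40.9 CPM in CD41+ cells under IgG. Its other libraries reached 2.86 to 5.03 in Kit+ CD45- cells and 0.133 to 0.757 in CD45+ cells. Gm16548, overlapping F5, the gene of coagulation factor V, and Selp, the gene of the adhesion receptor P-selectin, both on the other strand, stood at 12.8, 15.9, 13.7 and 15.2 against 0.547 to 1.23 and 0 to 3.39. Their counts came to 3.08% and 26.3% of those of Thbs1 and F5, and r was 0.97 and 0.91. With Selp the r of Gm16548 was 0.73. Reads from sequence that these opposite-strand pairs share may not be told apart.

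Of the others in this group, Gm37336 stood at 5.69 ± 1.4 CPM (SD, n = 4) against 0.7 ± 0.336 and 0.105 ± 0.131. AL513022.1 (ENSMUSG00000112963.1, chromosome 13, 33562486 to 33569317), 227116 bases from the nearest coding gene, had 42.6, 33.1, 25.5 and 48.1 CPM in CD41+ cells and 0, 13.5, 5.72 and 2.14 in Kit+ CD45- cells, where replicate 1 had none. Its smaller log2 fold change of 2.83 was no longer called by DESeq2, nor without replicate 3 or 4 of every group. The nuclear speckle RNA Malat1 belonged here too, at 7749, 9788, 10249 and 11147 CPM against 2679 to 5922 in Kit+ CD45- and 3416 to 4258 in CD45+ cells (log2 fold change -1.34, SE 0.20, adjusted p = 9.17e-06 for CD45+ over CD41+ cells). It took 0.796 to 1.03% of the counts of these 4 libraries. 1810058I24Rik, at 564 ± 49.8 CPM against 259.9 ± 77.5 and 136 ± 30.8, and 1700020I14Rik, which RefSeq names Oip5os1, at 176 ± 11.8 against 115 ± 16 and 95.6 ± 12.1, were higher there as well, as was AU020206 at 37.3 ± 4.5 against 19.3 ± 3.65 and 17.9 ± 1.03. The 8 megakaryocyte and platelet markers summed to 21050 to 28536 CPM in these IgG libraries, 763 to 3565 in Kit+ CD45- and 104 to 344 in CD45+ cells, with all 8 called in both pairs. Their part in the 27 members was not tested.

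**Figure D3:**
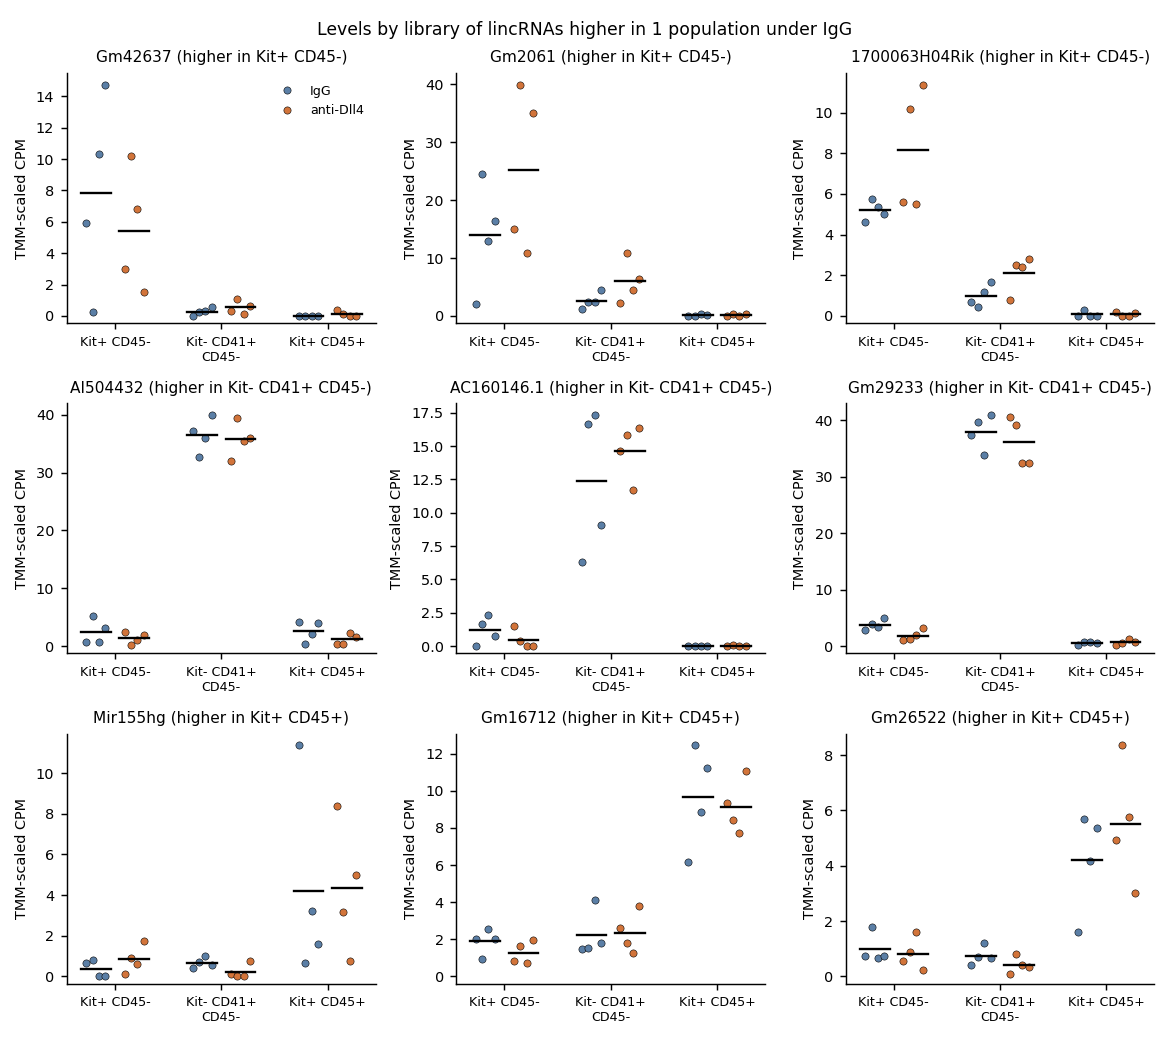
TMM-scaled CPM (vertical axis) by population for the 3 lincRNAs with the largest folds in each kind, with 1 point per library, blue for IgG and orange for anti-Dll4, and a black line at the mean of 4 libraries. AI504432 and Gm29233 stand above 30 CPM in all 8 CD41+ libraries and below 6 elsewhere, whereas Gm42637 and Mir155hg vary widely within the population where they are high.

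The start of a member could be matched to a RefSeq promoter (GRCm38.p6, 250 bases before to 50 after the start) within 50 bases for 50 members. For each of 6 kinds, higher or lower in 1 population, 1 member with such a match is printed. It is the highest in the order of folds that was not already printed for another kind. Among members lower in CD45+ cells, 1700063H04Rik (rank 9) was passed over for this reason, and Gm13842 (rank 13) is printed. Gm13842 is also the member of smallest p for a difference of the antibody effect between populations. Capitals mark matches to the hexamers AGATAA or TGATAA (bound by GATA factors), AGGAAG (ETS factors) and TGTGGT (RUNX factors), searched on both strands and merged where they overlap.

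1700063H04Rik, higher in Kit+ CD45- cells, chr6:122391129-122391428, plus strand: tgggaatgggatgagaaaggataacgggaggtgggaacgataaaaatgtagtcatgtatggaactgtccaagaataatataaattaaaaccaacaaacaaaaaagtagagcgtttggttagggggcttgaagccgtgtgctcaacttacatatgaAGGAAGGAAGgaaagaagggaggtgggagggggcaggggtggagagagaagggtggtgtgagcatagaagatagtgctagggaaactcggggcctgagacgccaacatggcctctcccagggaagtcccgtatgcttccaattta

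3300005D01Rik, higher in CD41+ cells, chr17:5798407-5798706, plus strand: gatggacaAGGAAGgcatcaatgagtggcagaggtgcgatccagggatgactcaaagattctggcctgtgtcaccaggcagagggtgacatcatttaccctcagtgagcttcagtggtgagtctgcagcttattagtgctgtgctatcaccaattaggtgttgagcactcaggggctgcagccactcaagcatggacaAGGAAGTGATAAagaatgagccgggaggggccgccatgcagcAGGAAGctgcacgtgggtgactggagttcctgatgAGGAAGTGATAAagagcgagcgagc

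Gm13056, lower in CD41+ cells, chr4:141278189-141278488, plus strand: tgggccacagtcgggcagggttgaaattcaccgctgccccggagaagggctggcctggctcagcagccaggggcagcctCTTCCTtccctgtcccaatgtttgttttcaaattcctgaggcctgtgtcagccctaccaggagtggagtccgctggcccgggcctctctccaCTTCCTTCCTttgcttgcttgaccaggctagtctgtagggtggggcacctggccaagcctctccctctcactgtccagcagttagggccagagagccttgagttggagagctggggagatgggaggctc

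Gm16712, higher in CD45+ cells, chr17:55959352-55959651, minus strand: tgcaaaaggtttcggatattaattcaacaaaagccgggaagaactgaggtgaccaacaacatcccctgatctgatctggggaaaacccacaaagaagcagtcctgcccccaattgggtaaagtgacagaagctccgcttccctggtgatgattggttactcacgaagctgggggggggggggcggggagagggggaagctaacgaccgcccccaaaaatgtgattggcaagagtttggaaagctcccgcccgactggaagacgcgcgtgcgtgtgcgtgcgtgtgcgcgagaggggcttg

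Gm16861, lower in Kit+ CD45- cells, chr16:4939536-4939835, minus strand: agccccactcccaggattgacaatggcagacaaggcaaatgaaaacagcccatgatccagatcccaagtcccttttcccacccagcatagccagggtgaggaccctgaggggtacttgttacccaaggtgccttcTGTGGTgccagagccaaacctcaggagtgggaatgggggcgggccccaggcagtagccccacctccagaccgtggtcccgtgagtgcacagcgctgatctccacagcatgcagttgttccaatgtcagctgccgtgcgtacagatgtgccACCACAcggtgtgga

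Gm13842, lower in CD45+ cells, chr5:116029192-116029491, minus strand: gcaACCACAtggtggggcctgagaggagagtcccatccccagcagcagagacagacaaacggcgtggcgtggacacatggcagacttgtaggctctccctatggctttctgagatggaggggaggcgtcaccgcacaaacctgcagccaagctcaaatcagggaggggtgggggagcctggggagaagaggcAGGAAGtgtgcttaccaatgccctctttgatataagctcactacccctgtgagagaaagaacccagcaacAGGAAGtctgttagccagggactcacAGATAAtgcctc

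3300005D01Rik stood at 40.5, 29.1, 29.3 and 42.8 CPM in CD41+ cells under IgG against 2.4 to 8.18 and 2 to 3.2. Its promoter held 4 ETS and 2 GATA hexamers, and in 2 places, from base -52 and base 26 counted from the start, AGGAAG was followed directly by TGATAA. Among the 9 members higher in CD41+ cells with a promoter, 7 held the ETS hexamer and 2 the GATA one. Over all 50 members it was 21 and 9 (42% and 18%), and 35.4% and 18.6% of all 32851 RefSeq promoters held them. Of the other kinds, 3 of 4 members lower in CD41+ cells and 4 of 7 lower in CD45+ cells held the ETS hexamer. So did 2 of 4 higher in Kit+ CD45- cells, 1 of 2 higher in CD45+ cells and 0 of 1 lower in Kit+ CD45- cells. These small counts were not tested. TGTGGT was found in 14% of the members' promoters and 16.8% of all. The promoter of Gm16712 held 0 matches to these hexamers. A match is a string of letters, not a bound site.

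In Kit+ CD45- cells 8 members were higher than in both other populations, and the level varied between libraries. Redrum, an RNA known from red cell maturation (chromosome 18), stood at 15.4, 53.6, 32.7 and 28.3 CPM under IgG, 5.73, 11.1, 8.41 and 15.8 in CD41+ cells and 0 to 0.717 in CD45+ cells. Its lowest Kit+ CD45- library, replicate 1, lay just under the highest of CD41+ cells. The smaller log2 fold change of 1.67 was not called without replicate 2 (1.36) or 3 (1.56) of every group, and under anti-Dll4 it was 1.90 (SE 0.50, adjusted p = 0.00582). Gm2061, which overlaps the manganese transporter gene Slc30a10 (r 0.96), stood at 2.03, 24.5, 12.9 and 16.5 against 1.28, 2.39, 2.4 and 4.44 CPM and at most 0.381 in CD45+ cells. 4930562F07Rik, which overlaps the coding gene 4930523C07Rik (r 0.94), stood at 4.8, 9.84, 8.41 and 7.17 against 1.2 to 3.66 and 0.833 to 1.86. Neither was called without replicate 2 of every group, at 1.95 and 1.62.

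1700063H04Rik (ENSMUSG00000040657.3, chromosome 6, 122391379 to 122392687), with the nearest coding gene 50818 bases away, did not overlap between populations. It stood at 4.61, 5.74, 5.38 and 5.03 CPM in Kit+ CD45- cells, 0.684, 0.443, 1.2 and 1.66 in CD41+ cells and at 0 in 3 of 4 CD45+ libraries. Pvt1, the RNA downstream of the Myc oncogene, stood at 21.1, 32.3, 21.1 and 23.9 against 5.91 to 12.7 and 7.49 to 10.7, and every Kit+ CD45- library lay above the others (log2 fold change 1.60, SE 0.32, adjusted p = 0.000433 over CD41+ cells). Myc itself, 47612 bases away, stood at 161 ± 45.8 CPM (SD, n = 4) in Kit+ CD45- cells and 230.5 ± 18 in CD45+ cells, where Pvt1 was lower by 1.52 on the log2 scale. Beside these members stand the erythroid markers, which summed to 153867 to 433148 CPM in the Kit+ CD45- libraries under IgG, 40836 to 105878 in CD41+ and 89.5 to 143 in CD45+ cells. Their part in the result was not tested.

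Gm42637 (ENSMUSG00000105039.1, chromosome 5, 125238314 to 125272815), 4272 bases from the lipoprotein receptor gene Scarb1, had the largest smaller fold change of this kind, and its libraries spread widely. It stood at 5.9, 0.273, 10.3 and 14.7 CPM in Kit+ CD45- cells under IgG and at 3.01, 10.2, 6.8 and 1.53 under anti-Dll4. In CD41+ cells it ran from 0 to 0.555 under IgG, a range that includes the replicate 2 value. No CD45+ library under IgG had a count, and the mean Kit+ CD45- level was at least 33.8-fold higher against the floor of 3 counts. The germ cell marker sum in the same Kit+ CD45- libraries, replicates 1 to 4, was 151, 46.1, 239.5 and 230.1 CPM under IgG and 55.5, 150.1, 284 and 103 under anti-Dll4. Replicate 2 was the lowest in both under IgG; under anti-Dll4 replicate 2 had the highest Gm42637 and replicate 3 the highest marker sum. The part of germ cells in this RNA was not tested.

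Of the members higher in CD45+ cells, 9 of 13 overlapped a coding gene. Gm16712, which overlaps Ccdc94 (r 0.53) and the cytokine subunit gene Ebi3 (r 0.95) on the other strand, stood at 6.19, 12.5, 8.83 and 11.2 CPM against 2.03, 0.957, 2.58 and 2.01 in Kit+ CD45- and 1.45, 1.51, 4.11 and 1.78 in CD41+ cells. Between CD45+ and CD41+ cells Gm16712 had a log2 fold change of 2.13 (SE 0.41, adjusted p = 0.000223). Ebi3 differed the same way, at 2.90 (SE 0.56, adjusted p = 0.00023), and Ccdc94 had 0.02, within its error (SE 0.18, adjusted p = 0.943). Reads of Gm16712 and Ebi3 may not be told apart where they overlap. Under anti-Dll4 Gm16712 was at 9.31, 8.44, 7.74 and 11.1 against at most 3.78, again with no overlap of the populations. 2310040G24Rik (ENSMUSG00000101655.1, chromosome 6, 86483376 to 86488227) overlaps no coding gene and stood at 4.46, 3.1, 4.57 and 6.36 CPM against 0.503 to 1.34 and 0.513 to 2.1. Gm26522, which overlaps Ctsc, the gene of the protease cathepsin C (r 0.93), stood at 1.6, 5.68, 4.19 and 5.38, with replicate 1 within the range of Kit+ CD45- cells. Its smaller log2 fold change of 2.10 was not called without replicate 3 (1.95) or 4 (1.85) of every group.

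Mir155hg (ENSMUSG00000097418.7, chromosome 16, 84703167 to 84715245) is the host of the microRNA miR-155, which acts in leukocyte activation. It stood at 11.4, 0.681, 3.2 and 1.61 CPM in CD45+ cells under IgG, 0.646, 0.82, 0 and 0 in Kit+ CD45- cells and 0.428, 0.708, 1 and 0.555 in CD41+ cells. Replicate 1 was the highest library and replicate 2 lay within the range of the other populations. The smaller log2 fold change of 2.63 (adjusted p = 0.0397) was 1.43 and not called without replicate 1 of these cells; it was not called in 9 of its alternatives. Under anti-Dll4 the level was 8.38, 3.18, 0.774 and 4.98, called over CD41+ cells (log2 fold change 4.27, SE 1.13, adjusted p = 0.0043) but not over Kit+ CD45- cells (log2 fold change 2.42, SE 1.01, adjusted p = 0.0745). Gm12031 stood at 3.26, 9.54, 13 and 48.2 CPM, replicate 4 highest, and its smaller log2 fold change was 1.10 without replicate 4 of every group. Gm26580, which overlaps Kcnq5, stood at 7.65, 2.95, 1.83 and 3.05 with replicate 1 highest, and the fold change was 1.16 without that library. Neither was called then, nor Gm12031 without replicate 2 or 3 of every group or Gm26580 without replicate 2 or 4. Macrophage and myeloid markers summed to 712, 2621, 2126 and 3162 CPM in the same 4 libraries, replicate 1 lowest, and to 70.6 to 102 in Kit+ CD45- cells. Their part was not tested.

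Hairpins of microRNAs lie within 5 members on the same strand. Mature sequences are shown for the 2 of them that the list of microRNA hosts holds, for what these give rise to, and not for Snhg20, 2900076A07Rik and AC140477.3, with 1 hairpin each. The microRNAs themselves were not measured in polyA libraries. Mir155hg carries 1 hairpin and Mir17hg 6, and the seeds (bases 2 to 8, in capitals, RefSeq on GRCm38.p6) group miR-17 with miR-20a and miR-19a with miR-19b.

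miR-155-5p: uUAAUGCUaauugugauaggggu

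miR-17-5p: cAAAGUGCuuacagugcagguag

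miR-20a-5p: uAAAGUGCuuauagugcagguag

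miR-18a-5p: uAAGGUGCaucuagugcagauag

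miR-19a-3p: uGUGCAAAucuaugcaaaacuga

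miR-19b-3p: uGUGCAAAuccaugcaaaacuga

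miR-92a-3p: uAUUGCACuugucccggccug

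Mir17hg (ENSMUSG00000089726.2, chromosome 14, 115042879 to 115046727), host of a cluster that promotes growth of blood progenitors, ran from 4.66 to 12 CPM in Kit+ CD45- cells, with replicate 4 lowest, and stood at 4.02, 6.82, 6.21 and 8.21 in CD41+ cells and 5.32, 6.28, 5.25 and 6.72 in CD45+ cells under IgG. No pair was called under IgG. Under anti-Dll4 it was called higher in Kit+ CD45- than in CD41+ cells (log2 fold change 1.03, SE 0.32, adjusted p = 0.0157). Of 18 microRNA hosts listed, Mir155hg and Mir17hg were members, and a host not typed as an autosomal lincRNA could not be a member.

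LincRNAs low in CD41+ cells were led by Gm19590, near an endothelial receptor gene. It (ENSMUSG00000107061.1, chromosome 5, 75833035 to 75835645) lies 97182 bases from Kdr, the gene of a Vegfa receptor of endothelium, on the same strand. It stood at 7.47, 7.52, 8.41 and 10.8 CPM in Kit+ CD45- cells and 15.2, 12.6, 18.4 and 20.4 in CD45+ cells, and 3 of the 4 CD41+ libraries under IgG had no count while replicate 4 had 0.111. Under anti-Dll4 it stood at 5.33, 3.02, 4.7 and 4.59 in Kit+ CD45- and 22.2, 12.4, 24.3 and 16.3 in CD45+ cells, with 3 of 4 libraries of CD41+ cells at 0. Kdr stood at 87.8 ± 22.7 and 126 ± 47.9 CPM (SD, n = 4) but was still at 42.4 ± 7.18 in CD41+ cells.

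AC131677.1, 129478 bases from the cell cycle gene E2f7, stood at 4.98, 1.78, 2.02 and 0.503 CPM in Kit+ CD45-, 4.92, 12.9, 3.27 and 2.42 in CD45+ and 0, 0.266, 0 and 0 in CD41+ cells. Under anti-Dll4 the last had no count, and the level in CD45+ cells was at least 24.2-fold higher. Gm13056, whose promoter is given above, stood at 3.32, 2.6, 1.68 and 3.27 CPM in Kit+ CD45- and 3.13, 8.55, 7.77 and 4.03 in CD45+ cells against 0.257, 0, 0.2 and 0. AC131677.1 was not called low in CD41+ cells in a fit of only the 2 groups compared, and neither were AC160146.1 and AL513022.1, named above, as low in CD45+ cells, which AC160146.1 also lost without replicate 2 of every group. Gm19590, AC131677.1 and Gm13056 were at or near 0 in CD41+ cells. AC113508.1 and AC113508.4 overlap each other on opposite strands near Ice1. AC113508.1 stood at 28.7, 43.9, 56.7 and 44.8 CPM in CD45+ cells and 2.99, 3.81, 2.9 and 0.777 in CD41+ cells. AC113508.4 stood at 4.79, 7.64, 5.18 and 6.54 in CD45+ and 0.599, 1.15, 0.501 and 0.222 in CD41+ cells. 4930555A03Rik, 141246 bases from Adgrl4, an adhesion receptor of endothelium, stood at 1.53, 5, 3.58 and 3.05 in CD45+ against 0, 0.266, 0.3 and 0 in CD41+ cells, with an r of 0.84 to Adgrl4. Bvht, an RNA known from heart cell commitment (chromosome 18), stood at 8.12, 5.47, 4.04 and 4.78 CPM in Kit+ CD45- cells, 6.45, 14.1, 11.6 and 10.4 in CD45+ and 0, 0.62, 1.4 and 0.777 in CD41+ cells. In none of these 7 did a CD41+ library under IgG reach the level of a CD45+ library. All 7 had been called lower in CD41+ cells from the same libraries, so this separation largely follows from their choice. How many of all genes separate in this way was not counted. The 8 endothelial markers summed to 795 to 1655 CPM in Kit+ CD45-, 1322 to 1891 in CD45+ and 166 to 267 in CD41+ cells under IgG; their part was not tested.

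Among the members lower in CD45+ cells, the largest smaller fold change was that of CT010463.1 (ENSMUSG00000112071.1, chromosome 12, 32096613 to 32123702), 35317 bases from Prkar2b, a regulatory subunit of protein kinase A. It stood at 33.6, 25.1, 24.6 and 34.1 CPM in CD41+ cells and 1.38, 29.8, 26.8 and 22.8 in Kit+ CD45- cells, with replicate 1 far below the other 3, against 0, 0.227, 0.0762 and 0.179 in CD45+ cells. The same library, replicate 1 of Kit+ CD45- cells under IgG, had the low platelet marker sum (763 CPM) and the high endothelial one (1655 CPM). Under anti-Dll4 the platelet sums of Kit+ CD45- replicates 1 to 4 were 1634, 567, 517 and 1066 CPM. Raw counts of CT010463.1 in these were 146, 145, 93 and 199, against 15, 218, 239 and 181 under IgG. The part of these markers in CT010463.1 was not tested. Prkar2b went with CT010463.1 over the 24 libraries (r 0.86). Gm43154, 41209 bases from Podxl, stood at 2.03, 4.78, 2.13 and 2.9 CPM in Kit+ CD45- cells and 4.79, 6.02, 5.81 and 6.44 in CD41+ cells, and had a count in 1 of 4 CD45+ libraries. Lockd, which lies downstream of the cell cycle inhibitor gene Cdkn1b and is known from red cell precursors, stood at 30.9, 71.4, 69.2 and 53.2 CPM in Kit+ CD45- cells, 26.7, 38.2, 33.8 and 46.6 in CD41+ cells and 10.6, 21.6, 19.2 and 15.2 in CD45+ cells. All its CD45+ libraries lay below those of the other populations.

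Lowest in Kit+ CD45- cells were 6 members. Neat1, the scaffold of nuclear paraspeckles, stood at 3.23, 21.2, 12.3 and 10.2 CPM there, 88.6, 56.9, 72.4 and 29 in CD41+ cells and 25.5, 62.4, 51.3 and 43.9 in CD45+ cells, with no overlap (log2 fold change -2.41, SE 0.44, adjusted p = 0.000187 against CD41+ cells). Its repeat under anti-Dll4 was 9.29, 12, 11.7 and 7.87 against at least 29.6 elsewhere. Malat1, its neighbour on chromosome 19, was likewise below CD41+ cells (log2 fold change -1.13, SE 0.20, adjusted p = 0.000116). Against CD45+ cells Malat1 did not differ beyond its error (log2 fold change -0.21, SE 0.20, adjusted p = 0.51 for CD45+ over Kit+ CD45- cells). Gm26532 stood at 1.38, 1.5, 1.34 and 1.51 against 5.13 to 7.81 and 3.5 to 6.79. Gm17473, which overlaps Angpt1, a vessel-stabilising ligand (r 0.98), stood at 2.58, 4.24, 5.16 and 6.17 against 13.6 to 16 and 7.95 to 31.9. Gm16933, which overlaps Htra4, a gene that was not tested, and Plekha2 (r 0.94) on the other strand, stood at 4.89, 1.09, 1.12 and 2.52, and its smaller log2 fold change of 1.73 was not called without replicate 2 (1.57) or 4 (1.84) of every group.

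Hosts of small nucleolar RNAs, which guide ribosomal RNA modification, were looked up among the members. Of 24 listed, 4 were members, and 1 was called under IgG, Snhg20, lower in CD45+ than in Kit+ CD45- cells (log2 fold change -0.80, SE 0.25, adjusted p = 0.0252). A listed host that the annotation does not type as lincRNA cannot be a member at any level, so the count does not measure how many are expressed. Between CD45+ and Kit+ CD45- cells 19.2% of all genes were called under IgG, and 27.9% and 37.2% in the other pairs. The 1 call is therefore not read as a trait of these hosts. Under anti-Dll4, 3 of the 4 were called lower in CD45+ than in Kit+ CD45- cells, beside 12.6% of all genes. In the authors' annotation no small nucleolar RNA gene lies within Snhg20 or Snhg12 on the same strand, and 1 lies within each of Snhg6, Epb41l4aos and 2700038G22Rik, a member that the list does not hold. Snhg6, which overlaps Mcmdc2 on the other strand (r 0.91), stood at 29.8, 42.8, 50.4 and 37 CPM in Kit+ CD45- cells under IgG, 25, 33, 32.4 and 38.2 in CD41+ cells and 27.9, 27.3, 31.8 and 31.2 in CD45+ cells, which overlap. Snhg12 and Epb41l4aos (chromosome 18) stood at 10.3 ± 3.38 and 18.7 ± 3.82 CPM (SD, n = 4) in Kit+ CD45- cells under IgG. Under anti-Dll4, Snhg6 and Snhg12 were called higher in Kit+ CD45- cells than in both other populations. Norad (2900097C17Rik), which binds Pumilio proteins, ran from 2.66 to 4.69 CPM over the 12 IgG libraries with no pair called. Gm42418 and Gm26917 lie beside each other on chromosome 17 at a ribosomal RNA gene (RefSeq names the first Rn18s-rs5); they stood at 234 ± 44.1 and 286 ± 85.4 CPM in Kit+ CD45- cells under IgG, and their reads cannot be told apart from ribosomal RNA.

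For anti-Dll4 against IgG, no member was called in any population, in the mean over populations or for a difference of the effect between populations. Over all 15618 genes tested, 0 were called in Kit+ CD45- and in CD41+ cells, 1 (0.0064%) in CD45+ cells, 0 for the mean and 4 (0.0256%) for the difference. At an unadjusted p under 0.05 edgeR gave 28 of 176 members in Kit+ CD45- cells, 2 in CD41+ cells and 6 in CD45+ cells, where 11.1%, 2.79% and 2.9% of all genes passed. DESeq2 called 2 members in Kit+ CD45- cells, 0 in CD41+ cells, 0 in CD45+ cells, 0 for the mean and 1 for the difference, where it called 0.727%, 0.00674%, 0.0585%, 0.176% and 0.138% of the genes to which it gave an adjusted p. The median log2 fold changes of the members were -0.02, 0.05 and 0.07, against -0.035, -0.01 and 0 over all genes. The 3 populations of an antibody arm are separate libraries, but each effect reuses the libraries that the comparisons of populations above use.

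The members with the smallest p in Kit+ CD45- cells were both higher in CD41+ cells. Gm13431 (ENSMUSG00000087187.1, chromosome 2, 36216777 to 36222934), 7492 bases from Ptgs1, the cyclooxygenase gene of platelets, stood at 1.78, 2.02, 2.6 and 4.81 CPM under anti-Dll4 against 4.33, 8.75, 6.73 and 8.31 under IgG. Replicate 4 under anti-Dll4 lay within the IgG range and the other 3 below it (log2 fold change -1.37, SE 0.30, adjusted p = 0.148). DESeq2 gave an adjusted p of 0.0105, and over the alternatives it ran from 0.0105 to 0.727. In CD41+ cells it stood at 54.4, 42, 37.7 and 43.7 against 31.2, 40.7, 46.8 and 43.8. Ptgs1 stood at 19.7 ± 9.18 against 26.9 ± 11.1 CPM in Kit+ CD45- cells (SD, n = 4).

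Gm13842 (ENSMUSG00000084992.1, chromosome 5, 116026411 to 116029230), 1903 bases from Prkab1, a subunit gene of AMP-activated kinase, stood at 0.683, 1.01, 0.3 and 2.4 against 2.49, 6.01, 4.48 and 2.01 CPM in Kit+ CD45- cells (log2 fold change -1.90, SE 0.49, adjusted p = 0.186). Replicate 4 under anti-Dll4 lay within the IgG range and the other 3 below it. DESeq2 gave an adjusted p of 0.0147, within a range of 0.0147 to 0.727 over the alternatives. Its values in CD45+ cells went the other way, 1.3, 2.09, 0.86 and 1.26 under anti-Dll4 against 0.599, 0.0757, 0.761 and 0.717, with no overlap (log2 fold change 1.35, SE 0.50, adjusted p = 1). In CD41+ cells it stood at 27.3, 18.6, 22.5 and 23.7 against 19.2, 17.8, 24.6 and 21.8, which overlap. The difference of the effect between populations had an adjusted p of 0.482 in edgeR.

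The sum of the platelet markers in Kit+ CD45- cells was 1634, 567, 517 and 1066 CPM under anti-Dll4 and 763, 3148, 2576 and 3565 under IgG, and in CD45+ cells 369, 442, 522 and 482 against 104, 344, 279.7 and 275. All 8 markers had a negative log2 fold change in the first, none called, and a positive one in the second, where 1 of them, F2rl2, was the gene called over all genes. Their part in the values of Gm13431 and Gm13842 was not tested. Without replicate 1 of Kit+ CD45- cells under IgG, the log2 fold changes were -1.56 and -2.07.

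**Figure D4:**
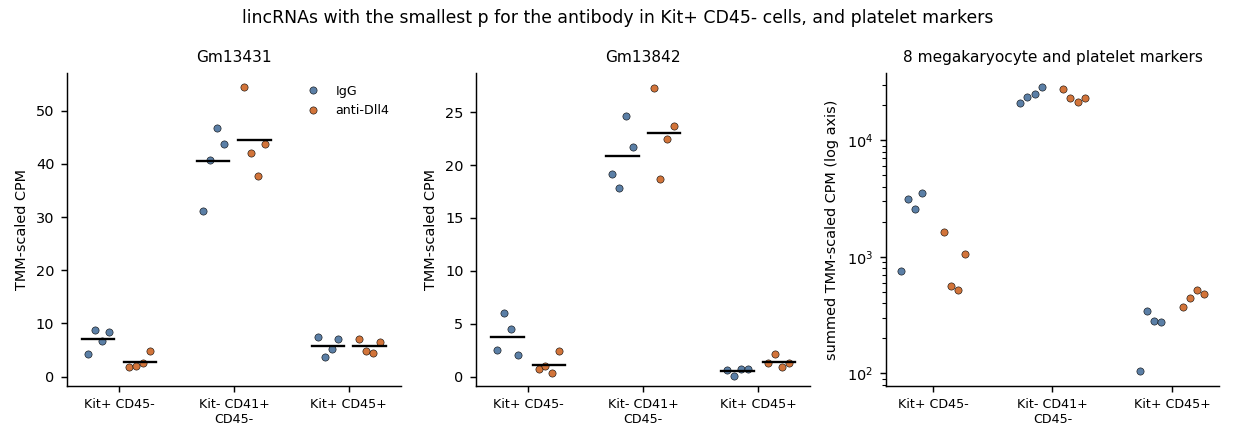
TMM-scaled CPM of Gm13431 and Gm13842 and, on a log axis, the summed CPM of 8 megakaryocyte and platelet markers (vertical axes) by population, with 1 point per library, blue for IgG and orange for anti-Dll4. Black lines in the lincRNA panels are means of 4 libraries, and the marker panel has none. In Kit+ CD45- cells 3 of 4 anti-Dll4 points of each lincRNA lie below every IgG point, and the lincRNAs and the markers are each highest in CD41+ cells.

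The remaining antibody values were smaller or less even. Gm26899, which overlaps Zfp106, stood at 24.5, 34.3, 36 and 20.3 against 14.5, 18.2, 22.8 and 19.3 CPM in Kit+ CD45- cells (log2 fold change 0.63, SE 0.19, adjusted p = 0.26), and Gm17300, which overlaps Rcc1, at 139.9, 124, 78.2 and 200.5 against 55, 105, 80.6 and 64.6 (log2 fold change 0.83, SE 0.26, adjusted p = 0.276); both pairs of groups overlap. In CD41+ cells Gm26625, which overlaps the Polycomb gene Ezh2, stood at 6.13, 5.44, 6.16 and 5.34 against 8.13, 9.39, 8.41 and 8.77, all 4 below the IgG libraries (log2 fold change -0.59, SE 0.22, adjusted p = 1). Ezh2 stood at 118 ± 8.88 against 132 ± 8.48 CPM there. Gm26580 stood at 0.201, 0.605, 0.522 and 0.445 against 0.941, 0.885, 1.6 and 1.22, also with no overlap, at levels near 1 CPM (log2 fold change -1.36, SE 0.62, adjusted p = 1). AC113508.4 and 4930555A03Rik, with at most 1.15 CPM in any of these 8 libraries, came next in order of p. In CD45+ cells 5430416N02Rik stood at 50.1, 24.2, 21.2 and 29.6 against 20.6, 13.7, 25.4 and 19.6 (log2 fold change 0.66, SE 0.24, adjusted p = 1), where replicate 1 under anti-Dll4 was the highest. AU020206 stood at 28.5, 26.6, 23.1 and 20.5 against 16.4, 18.5, 18.5 and 18.3, every anti-Dll4 library above every IgG one (log2 fold change 0.46, SE 0.19, adjusted p = 1). Gm43154 was at or below 0.697 CPM in all 8 of these libraries.

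The best-known members were not called for the antibody. Malat1 stood at 4660, 5021, 3104 and 6444 CPM under anti-Dll4 against 2679, 4655, 5922 and 4483 under IgG in Kit+ CD45- cells, a log2 fold change of 0.12 (SE 0.20, adjusted p = 0.843). The effects on Neat1 were -0.17 (SE 0.44, adjusted p = 0.908), -0.14 (SE 0.41, adjusted p = 1) and 0.03 (SE 0.41, adjusted p = 1) in Kit+ CD45-, CD41+ and CD45+ cells. For Pvt1 they were 0.20 (SE 0.30, adjusted p = 0.821), 0.53 (SE 0.31, adjusted p = 1) and 0.57 (SE 0.31, adjusted p = 1), all positive and none called. Redrum and Lockd had 0.77 (SE 0.49, adjusted p = 0.54) and 0.68 (SE 0.32, adjusted p = 0.441) in Kit+ CD45- cells. The erythroid marker sum there ran from 214592 to 942652 CPM under anti-Dll4 against 153867 to 433148 under IgG, ranges that overlap. None of the 9 erythroid markers was called for the antibody in these cells, and their part was not tested.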

How the data were processed

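Raw counts per gene were deposited for 24 libraries of 6 groups, beside a deposited log2 table of the same genes with their annotation, from which gene type and mm10 coordinates were taken. Per the submitters' processing notes the tools were CASAVA 1.4, FastQC, STAR, HTSeq and DESeq2. Their roles, the annotation release and the strand setting of the counting were not given in the sources used here. Recomputing log2(count/size factor + 1) from the counts gave the deposited log2 values within 5.86e-14; they were not tested. A column that matches no listed sample (1) was not used.

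Counts were tested with edgeR 4.0.16 (R 4.3.3; filterByExpr, TMM, robust quasi-likelihood F-test, 1 fit of 24 libraries, Benjamini-Hochberg over 15618 genes within a comparison), checked on simulated data. Alternatives were DESeq2 1.42.0, other scalings, no count filter, fewer libraries, other limits for membership and the replicate number as a block. Library totals of 8718351 to 11379830 counts limit precision at 1 CPM to about 10 reads, and floors of 3 counts cover counting error only.

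Members and lists were chosen with earlier results of these data known. Members named were, by rule, the 6 with the largest smaller fold for each population where they were higher, 4 for each where they were lower, the 4 of smallest p for the antibody in each population, the 6 of highest mean level, the 3 on each side of the limit and those on lists of known roles. The pairs of nearest coding genes come from the deposited coordinates. Promoters, microRNAs and RefSeq names are from RefSeq (GRCm38.p6), where 92 members matched by symbol and 72 had a promoter entry; the printed promoters were picked after their members' values were seen.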

Additional observations from a re-analysis of the deposited data

Results flagged for a closer look

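Among 54 named members in 6 groups of 4 libraries, 324 sets of values were checked for a library whose gap to the nearest other, over the range, passed Dixon's critical value, and 24 had one. In 10 of them the other 3 libraries were all at 0, where any count passes, so that the rate of about 1 in 20 that chance gives does not hold for such sets; 14 had reads in another library. First come RNAs otherwise at or near 0. In CD41+ cells under IgG these were Gm19590 at 0.111 CPM in replicate 4 and AC131677.1 at 0.266 in replicate 2. Under anti-Dll4 they were Gm19590 at 0.201 in replicate 1, Gm13056 at 0.111 in replicate 4, 4930555A03Rik at 0.101 in replicate 2 and Mir155hg at 0.778 in replicate 4. In CD45+ cells they were 1700063H04Rik at 0.303 in replicate 2, AL513022.1 at 0.305 in replicate 3 and Gm43154 at 0.179 in replicate 4 under IgG, and AC160146.1 at 0.0775 and AL513022.1 at 2.01 in replicate 2 under anti-Dll4.

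The others stood at higher levels. A library above its group was found for Gm16712 (4.11 CPM, CD41+, IgG, replicate 3), Gm26522 (1.78, Kit+ CD45-, IgG, replicate 2) and Gm26580 (2.02, Kit+ CD45-, IgG, replicate 3). It was also found for Malat1 (5094, CD45+, anti-Dll4, replicate 1), Gm26917 (179.7, CD41+, anti-Dll4, replicate 3) and Epb41l4aos (27.8, CD45+, anti-Dll4, replicate 1). Gm17638 (214, CD41+, IgG, replicate 1) and C330006A16Rik (4.94, CD41+, anti-Dll4, replicate 2) stood apart too. A library below its group was found for Gm26532 (3.27, CD45+, anti-Dll4, replicate 3), AU020206 (16.4, CD45+, IgG, replicate 1), 1810058I24Rik (90.2, CD45+, IgG, replicate 1), Epb41l4aos (11.3, CD41+, IgG, replicate 1) and 2900097C17Rik (2.39, Kit+ CD45-, anti-Dll4, replicate 2).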

How the results depend on the processing

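Counts of members called changed with the limit for membership, which changes the number of members. With 10 CPM in a group, 101 members, the 3 pairs under IgG gave 40, 30 and 59 in the order of the report (39.6%, 29.7% and 58.4%, beside 35.9%, 24.3% and 45% of genes at that limit), the pairs with CD45+ cells under anti-Dll4 46 and 55, and 3 were higher in Kit+ CD45- cells. With a mean of 5 CPM over 24 libraries, 125 members, the pairs with CD45+ cells gave 31 and 62 under IgG, CD45+ against CD41+ cells 56 under anti-Dll4, and 4 were higher in Kit+ CD45- cells. DESeq2 called 2 members for the antibody in Kit+ CD45- cells and 1 for its difference between populations. Members higher in CD45+ cells fell from 13 to 7 with all genes of 1 count or more, and to 7 without replicate 1 of these cells under IgG.

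Leaving out replicate 1, 2, 3 or 4 of every group, or a single library, gave 28 to 57 members for CD45+ against Kit+ CD45- cells under IgG (28 without replicate 2) and 47 to 78 under anti-Dll4 (47 without replicate 2 or 4). For the antibody in Kit+ CD45- cells it gave 0 to 1 (1 without replicate 1). It gave 4 to 9 members higher in Kit+ CD45- cells (4 without replicate 2, 5 without replicate 3) and 2 to 17 higher in CD45+ cells (4, 5 and 2 without replicates 2, 3 and 4). With fewer libraries the fit also loses residual degrees of freedom. No direction reversed in the results and alternatives run; 197 other counts and 545 values of named members stayed within their limits, 35 lost and 3 gained a call.

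With the replicate number as a block, 63, 49 and 89 members were called in the 3 pairs under IgG. Deviations of same-numbered libraries had a median r of 0.0522 across populations of an antibody, over 0.1 in 6 of 24, against -0.02215 and 3 of 72 for different numbers; across antibodies it was -0.01995, 0 of 12, against 0.0203 and 5 of 36. These values cannot settle whether same-numbered libraries of an antibody share embryos or cells. The main fit holds no such pairing, and the fits with a block give the counts with it. A block of the populations that share antibody and number, added after seeing the data, gave 65, 49 and 94. Upper-quartile scaling moved the median of all genes between Kit+ CD45- and CD41+ cells from 0.06 to 0.16, with 68 members called. At this depth members under about 1 CPM rest on a few reads.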
